A study of Homo sapiens with 41 samples.

Results

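CTCF binding was mapped with and without triptolide in 3 states of osmotic stress, with 1 chromatin immunoprecipitation library for each state and side. The libraries were chosen by title: they are the CTCF libraries of the second of 2 submissions, and they make up 6 of the 41 samples of the series. The cells were T47D, a cell line established from a human luminal breast carcinoma, kept in medium depleted of steroids and then without serum before the treatment. Unstressed cells received nothing or triptolide alone, stressed cells received 110 mM NaCl for 1 h, and recovering cells received 110 mM NaCl for 1 h and then isotonic medium for 1 h. In the triptolide arm the drug was added at 500 nM 2 h before, which the series text counts as 3 h of inhibition in all, and that text gives the NaCl as 100 mM where the titles give 110 mM. Chromatin was fixed with formaldehyde and precipitated with an antibody to CTCF. Peak lists do not measure expression, so the cell line was not checked against marker genes. Nothing in the labels names the cultures, so each library is a single measurement without an estimate of biological spread, and no test within a state was possible. Over the 3 states as pairs an exact test cannot give a p below 0.25.

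CTCF is a zinc finger protein that binds a long DNA motif with a GC-rich core and stops the loop extrusion carried out by the cohesin ring, of which RAD21 is a subunit. Its sites lie at promoters, inside genes and between genes, and pairs of them often mark the ends of chromatin loops and domains. Triptolide is a plant diterpenoid that binds the XPB subunit of the general transcription factor TFIIH, blocks the opening of promoter DNA, and so prevents RNA polymerase II (Pol II) from initiating.

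The pre-treatment tags disagree with the titles in 3 of these 6 libraries: the tag names no drug for the unstressed and the 1 h library titled with triptolide, and it names triptolide for the recovery library titled without it. The same holds for 6 of the 12 libraries of that submission. By the tags both libraries of each state had the same pre-treatment, so "with" and "without" below mean the title only. The deposited values are the authors' peak lists, which hold no read totals. Their depth is therefore unknown. A background pileup could be worked back from the fold and p of sampled peaks in 5 of the 6 libraries. Its commonest value lay between 3.38 and 3.68 and was found at 13.2 to 23.7% of the sampled peaks of a library. In the recovery library with triptolide only 4.11% of sampled peaks gave a whole-number pileup (to within 0.005), against at least 99.8% in the others, and its background could not be recovered.

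The promoters of 10 genes show the classes of sites described below, and their sequences are printed first so that the stretch under a site of each class can be seen. Each is the 250 bases before the transcription start, 5' to 3' on the strand of the gene, from RefSeq for GRCh38.p14, and each held the summit of a CTCF site. Capitals mark CAGNNGGC or its reverse complement GCCNNCTG, letters within the CTCF motif, searched on both strands. CARM1 and KDM3B had a peak in all 6 lists. UQCC2 and MARCHF7 had one in both unstressed and both recovery lists and in neither 1 h list, and FOXA3 and ZNF324 had the same pattern without a peak in the recovery list with triptolide. NDC1 and SYNE1 had a peak in the 3 lists without triptolide alone, and PPP1CC and ZNF814 in the 2 lists at 1 h alone.
CARM1 (chr19:10871303-10871552, plus strand): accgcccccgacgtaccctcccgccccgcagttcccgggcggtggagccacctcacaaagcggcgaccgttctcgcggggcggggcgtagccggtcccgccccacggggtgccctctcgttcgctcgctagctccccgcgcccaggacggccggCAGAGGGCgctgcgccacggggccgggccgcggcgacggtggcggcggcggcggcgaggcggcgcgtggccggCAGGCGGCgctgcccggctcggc
KDM3B (chr5:138352435-138352684, plus strand): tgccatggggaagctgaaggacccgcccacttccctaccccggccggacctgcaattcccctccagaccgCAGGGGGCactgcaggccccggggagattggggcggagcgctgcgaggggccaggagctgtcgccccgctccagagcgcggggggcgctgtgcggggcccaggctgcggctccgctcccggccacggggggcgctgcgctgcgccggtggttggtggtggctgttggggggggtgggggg
UQCC2 (chr6:33711701-33711950, minus strand): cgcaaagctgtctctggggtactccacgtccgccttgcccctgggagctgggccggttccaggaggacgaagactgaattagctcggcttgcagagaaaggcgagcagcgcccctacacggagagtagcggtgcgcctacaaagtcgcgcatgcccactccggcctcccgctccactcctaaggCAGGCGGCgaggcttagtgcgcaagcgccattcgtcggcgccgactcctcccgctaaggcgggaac
MARCHF7 (chr2:159712256-159712505, plus strand): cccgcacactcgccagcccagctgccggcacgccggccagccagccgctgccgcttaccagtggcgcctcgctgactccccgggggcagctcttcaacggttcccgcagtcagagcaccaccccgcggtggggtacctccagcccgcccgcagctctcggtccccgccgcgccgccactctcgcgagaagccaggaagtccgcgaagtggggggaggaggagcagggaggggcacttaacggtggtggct
FOXA3 (chr19:45864076-45864325, plus strand): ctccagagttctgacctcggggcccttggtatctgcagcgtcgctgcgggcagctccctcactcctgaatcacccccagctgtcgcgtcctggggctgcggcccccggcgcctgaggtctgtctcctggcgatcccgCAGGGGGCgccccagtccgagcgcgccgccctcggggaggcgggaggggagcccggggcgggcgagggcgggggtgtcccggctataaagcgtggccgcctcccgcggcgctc
ZNF324 (chr19:58466830-58467079, plus strand): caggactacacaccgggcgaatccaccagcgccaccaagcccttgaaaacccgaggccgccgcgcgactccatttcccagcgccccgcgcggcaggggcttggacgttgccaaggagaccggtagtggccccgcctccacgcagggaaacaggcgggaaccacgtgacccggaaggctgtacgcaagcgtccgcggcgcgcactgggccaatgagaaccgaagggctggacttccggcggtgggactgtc
NDC1 (chr1:53838297-53838546, minus strand): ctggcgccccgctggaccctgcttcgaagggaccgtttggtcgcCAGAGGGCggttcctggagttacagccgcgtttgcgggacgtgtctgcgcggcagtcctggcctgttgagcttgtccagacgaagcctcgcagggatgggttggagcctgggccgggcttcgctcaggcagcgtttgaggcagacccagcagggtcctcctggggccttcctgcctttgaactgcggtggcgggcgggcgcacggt
SYNE1 (chr6:152636891-152637140, minus strand): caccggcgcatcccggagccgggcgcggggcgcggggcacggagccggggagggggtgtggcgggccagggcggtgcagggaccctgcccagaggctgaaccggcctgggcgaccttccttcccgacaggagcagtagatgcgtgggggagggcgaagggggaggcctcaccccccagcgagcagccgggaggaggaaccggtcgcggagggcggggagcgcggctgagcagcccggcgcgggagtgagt
PPP1CC (chr12:110742892-110743141, minus strand): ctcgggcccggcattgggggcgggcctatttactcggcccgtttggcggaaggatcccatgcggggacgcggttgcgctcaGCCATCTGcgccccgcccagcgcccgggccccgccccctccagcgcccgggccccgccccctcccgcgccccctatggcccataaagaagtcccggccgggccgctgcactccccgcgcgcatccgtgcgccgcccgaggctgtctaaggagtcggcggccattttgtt
ZNF814 (chr19:57889038-57889287, minus strand): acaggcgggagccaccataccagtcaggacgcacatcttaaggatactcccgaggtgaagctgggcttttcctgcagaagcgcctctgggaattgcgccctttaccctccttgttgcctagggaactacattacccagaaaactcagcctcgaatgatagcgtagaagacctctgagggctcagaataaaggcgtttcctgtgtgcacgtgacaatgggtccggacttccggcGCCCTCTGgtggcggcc

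The share of promoters with the motif was highest at the sites found in all 6 lists. Of 1614 promoter windows of 300 bases (250 before to 50 after the start) with a summit of such a site, 59.2% held CAGNNGGC (95% interval 56.7 to 61.6%), against 30.1% of all 34789 windows. CAGGGGGC, which is 1 form of the same motif and so overlaps it, was in 20.6% of them and in 4.3% of all windows. At the sites absent at 1 h on both sides the share with CAGNNGGC was 43.5% of 582 windows where the site was back on both sides and 44.0% of 200 where it was back without triptolide only, with intervals that overlapped (39.4 to 47.6% and 37.0 to 51.2%). For CAGGGGGC these shares were 7.0 and 4.5%. Windows with a summit found without stress only with triptolide held CAGNNGGC in 40.2% of 209 cases, and those with a summit found only without triptolide in 45.7% of 368. The promoters printed above include MARCHF7, ZNF324 and SYNE1, in which none of these letters occur in the stretch shown.

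Peak numbers differed between the sides in opposite directions in the 3 states. A peak is a region that the authors' caller, MACS2, listed as enriched, and counts here cover chromosomes 1 to 22 and X. Without stress there were 38571 peaks without and 41718 with triptolide, a ratio of 1.08. At 1 h of NaCl there were 22018 and 20678, a ratio of 0.939, and in recovery 46377 and 34517, a ratio of 0.744. Both 1 h lists were thus shorter than all 4 others, and the largest difference between the sides was in recovery. One side of that difference is the recovery list with triptolide, whose pileups stood apart from those of the other 5 lists. The other side is the longest of the 6 lists. The 4 CTCF lists of the earlier submission without stress and at 1 h also gave few whole-number pileups, at 1.31 to 3.38% of sampled peaks. The part of the pileups in the peak number and fold enrichment of the recovery list with triptolide was not tested. Over the 3 states as pairs the mean log2 ratio was -0.13 ± 0.27 (SD, n = 3 states), below 0 in 2 of 3, with p = 0.75 in an exact two-sided sign-flip permutation test. The earlier submission had 59843 and 43835 CTCF peaks in its 2 unstressed libraries and 35374 and 34205 in its 2 libraries at 1 h, all without triptolide. Those 2 unstressed lists, which the labels treat alike, differed in number by a larger factor than the sides did in any state. The difference in recovery was not confined to a few chromosomes. The log2 ratio of sites ran from -0.76 on chromosome X to -0.34 on chromosome 16. It was below 0 on 23 of 23 chromosomes, as it was at 1 h. Without stress it was above 0 on 21 of 23, from -0.04 on chromosome 16 to 0.37 on X. The chromosomes of a state come from the same 2 libraries and are not replicates.

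**Figure D1:**
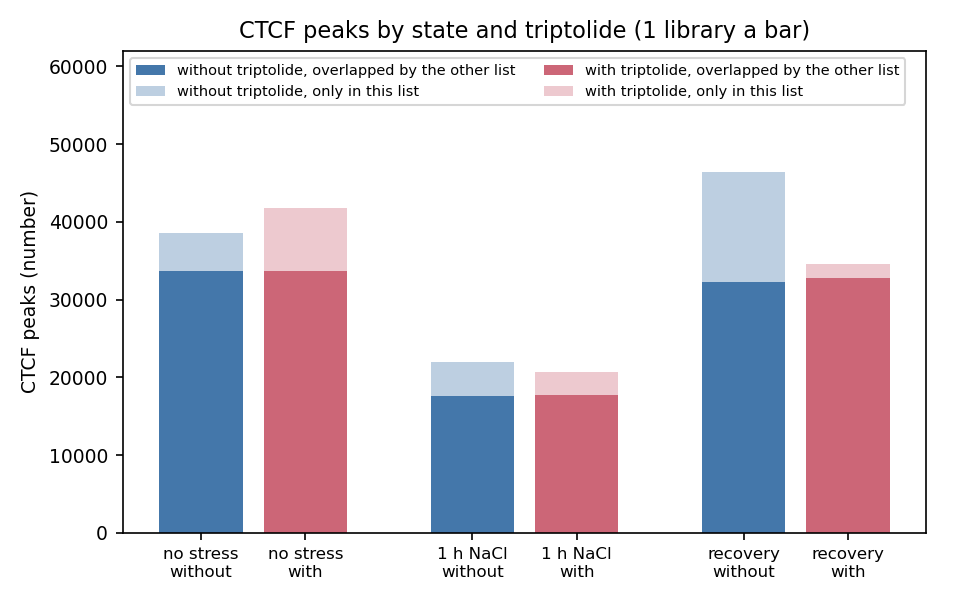
Bars give the number of CTCF peaks in each of the 6 libraries, by state and by triptolide in the title, and the pale part of a bar is the peaks that no peak of the other list of that state overlapped. The pale part is tallest in recovery without triptolide (14074 peaks) and smallest in recovery with triptolide (1739).

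The peaks themselves also differed in width and enrichment. The median width without and with triptolide was 442 and 483 bp without stress, 429 and 421 bp at 1 h, and 460 and 405 bp in recovery. The lists covered 19.2 and 21.99 Mb, 10.8 and 9.79 Mb, and 24.4 and 15.6 Mb in the same order. The fold enrichment of a peak is the authors' ratio of its pileup to the caller's background, and its median was 6.38 and 7.59 without stress, 5.63 and 5.76 at 1 h, and 7.35 and 6.21 in recovery. The longer list of each unstressed or recovery pair was therefore also the one with wider and higher peaks, while at 1 h the shorter list had the slightly higher median.

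Most CTCF peaks of a state were listed on both sides. Of the peaks without triptolide, 87.2% were overlapped by at least 1 bp of a peak with triptolide without stress (exact Clopper-Pearson 95% interval 86.9 to 87.6%, which covers counting error only), 80.1% at 1 h (79.5 to 80.6%) and 69.7% in recovery (69.2 to 70.1%). In the other direction the shares were 80.6, 85.8 and 94.96%. Summits of overlapping peaks lay a median of 20, 22 and 18 bp apart, and 94.0, 91.5 and 95.02% of them lay within 100 bp. Between the 2 unstressed libraries of the earlier submission, neither with triptolide, the shares were 71.1 and 97.5%.

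Whether a peak was listed on both sides went with its enrichment. When each list was divided into quintiles of fold enrichment, at least 99.98% of the highest quintile was overlapped in every state and direction. In the lowest quintile of the lists without triptolide 50.3% was overlapped without stress, 43.6% at 1 h and 26.3% in recovery. In the lowest quintile of the lists with triptolide it was 55.5, 64.3 and 79.9%. Peaks found only without triptolide had a median fold enrichment of 3.23 without stress, 3.47 at 1 h and 4.33 in recovery, and the shared peaks of the same lists had 7.13, 6.69 and 10.2. Peaks found only with triptolide had 4.63, 3.74 and 3.31, against 9.02, 6.39 and 6.45 for shared peaks. The highest fold enrichment of a peak confined to 1 side of its state was 16.2.

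**Figure D2:**
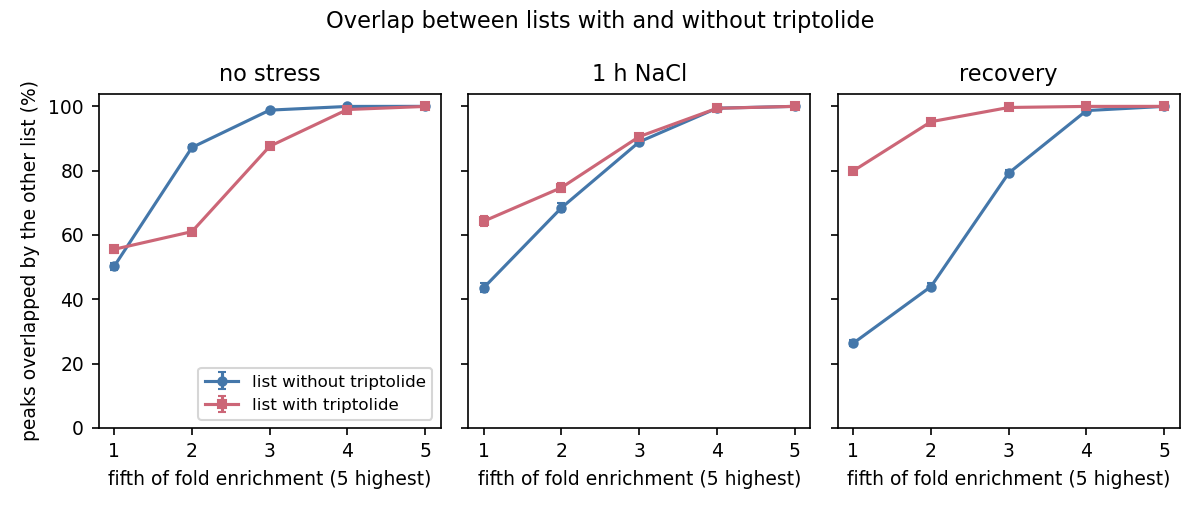
Share of peaks overlapped by the other list of the same state, by quintile of fold enrichment within the list (5 is the highest), for lists without and with triptolide, with exact 95% intervals from counts. All curves meet near 100% in the 2 highest quintiles, and they stand furthest apart in the lowest quintile of recovery (26.3% against 79.9%).

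At equal list length the 1 h lists differed more from the other states than the 2 sides of a state did. The 20678 strongest peaks by -log10 p were taken from each list, the length of the shortest, and the overlap was averaged over both directions. The 2 sides of a state shared 83.8 to 90.4% over the 3 states. Unstressed and recovery lists shared 88.4 to 90.6% on the same side and 89.5 to 89.9% on opposite sides. The 1 h lists shared 71.7 to 73.4% with unstressed or recovery lists of the same side and 72.3 to 73.6% with those of the other side. Pairs that differed in triptolide thus overlapped about as much as pairs that did not, while every pair with 1 list from 1 h and 1 from another state lay below every other pair among the 15. With both lists of a state cut to the length of the shorter, the share of peaks without triptolide that was overlapped was 84.2% without stress, 83.5% at 1 h and 86.0% in recovery, in place of 87.2, 80.1 and 69.7% with the full lists. Recovery, which had the lowest share with the full lists, had the highest at equal length.

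**Figure D3:**
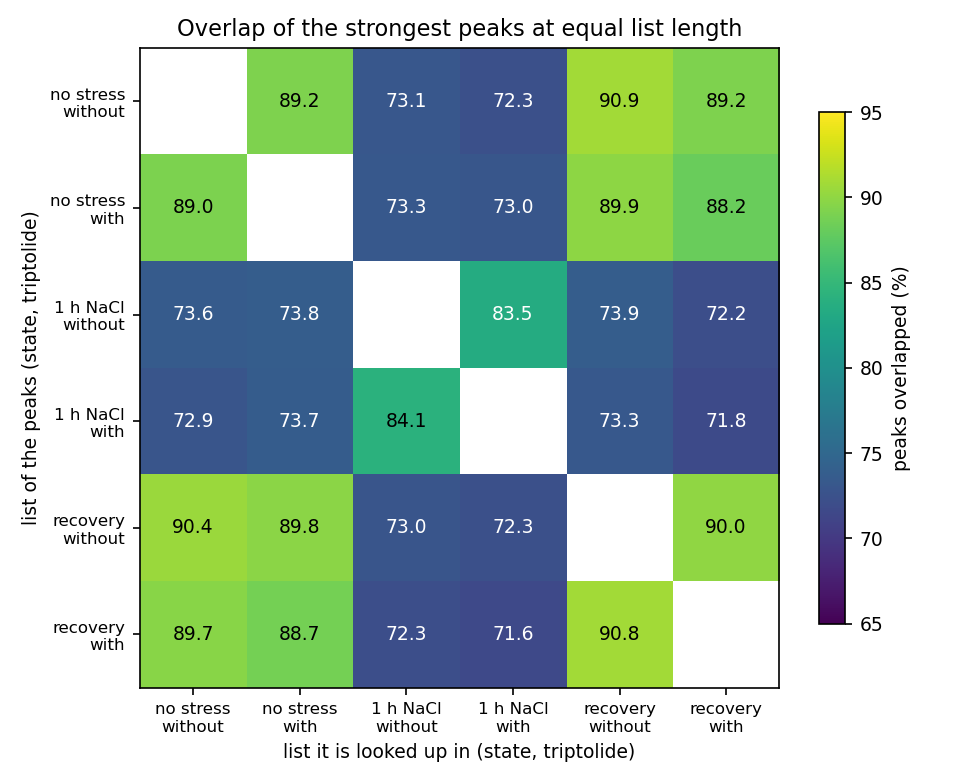
Share of the 20678 strongest peaks of the list in a row that is overlapped by the 20678 strongest peaks of the list in a column, in percent, for the 6 libraries. The rows and columns at 1 h stand out with 71.6 to 73.9% against the other states, and 1 h lists overlap each other at 83.5 and 84.1%.

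Overlapping peaks of the 6 lists were merged into 54894 sites. Of these 15716 sites (28.6%) were in all 6 lists and 11871 (21.6%) in 1 list only. The next pattern, 10238 sites, was presence in the 4 unstressed and recovery lists and absence from both at 1 h. A further 4943 sites were in the recovery list without triptolide alone. There were 3499 in that list and in the unstressed list with triptolide and in no other, a pattern that crosses the sides by title.

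Within each class, sites near gene ends were ranked by their lowest percentile of fold enrichment among the lists that hold them. The highest of these are named and called leading sites, not always in order of rank. The leading sites of all 6 lists were at the genes that follow. At CARM1, an arginine methyltransferase that serves as a transcriptional coactivator (chromosome 19, 10870941 to 10872284, hg38, at the transcription start), the fold enrichment without and with triptolide was 63.9 and 60.5 without stress, 60.1 and 52.2 at 1 h, and 78.2 and 64.5 in recovery. At KDM3B, a histone H3 lysine demethylase (chromosome 5, 138352226 to 138353567, at the start), it was 51.9 and 52.0, 52.8 and 43.6, and 59.2 and 46.1. At SIK1, the salt-inducible kinase (chromosome 21, 43426805 to 43428059, at the start), it was 59.5 and 54.8, 52.3 and 41.2, and 70.0 and 50.1. In these 3 genes the value with triptolide was the lower of the pair at 1 h and in recovery, but fold enrichment depends on the background of each library. Pairs of fold values at single genes, here and below, are therefore descriptions and do not measure an effect of the drug. By rank these sites were at or above percentile 99.7 of every list, as were those at SPIN1, a reader of histone marks, BCLAF3, CHPF, a chondroitin polymerizing factor, LRRC56, RNF144A, ADORA2A, an adenosine receptor, and LOC102724428.

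Without stress 4642 sites were found only without triptolide, 10.2% of the 45711 sites of either list, and 7975 (17.4%) only with it. The sites found only with triptolide lay less often at gene ends and more often inside genes. An end of a protein-coding gene was within 1 kb of 11.7% of them, against 25.2% of the 33094 shared sites and 27.8% of those found only without triptolide. Gene bodies held 43.6% of them, against 34.1% of the shared sites and 34.4% of those found only without triptolide. Overlap with RAD21 differed as well: 32.1% of the sites found only with triptolide were overlapped by an unstressed RAD21 peak without triptolide, against 2.8% of those found only without it and 57.2% of the shared ones. With the RAD21 list with triptolide in place of that one, the shares were 49.6, 9.8 and 77.9%. RAD21 thus overlapped sites found only with triptolide more often than those found only without it, and less often than shared sites. Peaks of both 1-sided classes were weak, with a median percentile of 21.7 only with and 10.9 only without triptolide. Overlap with RAD21 also went with enrichment. In the unstressed list without triptolide, 775 peaks of the lowest quintile were under RAD21 without triptolide and 6938 were not, against 5787 and 1932 in the highest. Within the lowest quintile of the unstressed list with triptolide, the other list overlapped 72.9% of peaks near gene ends and 48.0% of others. In the next quintile these shares were 85.7 and 55.3%. In the list without triptolide they were 55.7 and 47.9%, then 83.0 and 88.5%. Shares by RAD21 within the lowest quintile are given with the RAD21 lists below. The part of enrichment in these differences was described in this way and not tested.

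Among the sites found only with triptolide without stress, the leading ones near a gene end included those at ZNF143, a zinc finger activator that binds many promoters (chromosome 11, 9460581 to 9461117), at ZNF76, its close paralogue (chromosome 6, 35259403 to 35259965), and at SNX12, a sorting nexin (chromosome X, 71068273 to 71068746). These sites had a peak in all 5 other lists. At ZNF143 the fold enrichment was 16.2 without stress with triptolide, 10.5 and 7.87 at 1 h, and 16.3 and 6.86 in recovery, and the nearest summit of the unstressed list without triptolide was 46127 bp away. The 3 sites were the only ones of 64 with this pattern that stood at or above percentile 50 in all 5 lists, and all 3 were in the first unstressed list of the earlier submission, and that at SNX12 in the second as well. The other leading sites were at ADA, adenosine deaminase, and FAM217B, with 8.52 and 8.79 in the unstressed list with triptolide. On the other side a leading site was at GUCY1B1, a subunit of soluble guanylate cyclase. It had 6.19 in the unstressed list without triptolide and no peak elsewhere. The others were at ZNF705D, ELAC1, ZFAND5 and CMSS1, with 5.48 to 6.19 in that list.

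At 1 h of NaCl 4180 sites were found only without triptolide, 17.2% of 24313, and 2811 (11.6%) only with it. Near gene ends lay 28.2% of the former, 18.4% of the latter and 24.9% of the 17322 shared sites. Several sites missing from 1 side had strong peaks in the other states. At MXI1, a MAX-binding repressor (chromosome 10, 110225827 to 110226628), the fold enrichment was 29.3 and 27.5 without stress, 6.52 at 1 h without triptolide and 39.2 and 27.5 in recovery, with no peak at 1 h with triptolide. CYB5A, cytochrome b5, had 28.6 and 29.4 without stress and 7.15 at 1 h without triptolide, and EID2, KRT28 and MTA3, a subunit of the NuRD complex, had 6.56 to 7.56 there. Found at 1 h only with triptolide were sites at PCDHGB1, a clustered protocadherin (6.78), WNT8A, a secreted Wnt ligand (6.36), GFRA2 (6.35), CTBP2, a corepressor (5.66), and KCND2, a potassium channel (5.56). All 10 had peaks in both unstressed lists. Sites in 5 lists and absent at 1 h with triptolide numbered 1793, and those absent at 1 h without it 1301.

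In recovery 13859 sites were found only without triptolide, 29.2% of 47415, and 1567 (3.3%) only with it. Gene ends held 25.1% of the former, 24.2% of the 31989 shared sites and 9.8% of the latter. The leading sites found only without triptolide were at ZNF701 and LRRTM1, a synaptic adhesion protein, both with no peak in any other list and a fold enrichment of 9.13 and 8.91, and at CADPS2 (9.71), SGPP2, a sphingosine phosphate phosphatase (10.2), and FAM217B (7.54). By fold enrichment in that list alone KCND2 was higher, with 12.8 and a peak in both unstressed lists and at 1 h with triptolide. The leading sites found only with triptolide were at CTDNEP1, a phosphatase of the nuclear envelope (6.76), ZNF516 (4.73), STRA8 (4.57), UTP23 (4.55) and CENPVL3 (4.41). RAD21 without stress and without triptolide overlapped 23.5% of the sites found only without triptolide and 3.8% of those found only with it.

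The libraries of the earlier submission, none of which had triptolide, held these classes unequally. Of the 7975 unstressed sites found only with triptolide, 86.9% were in the first unstressed list of that submission and 76.0% in the second. Of the 4642 found only without triptolide, 16.5 and 6.68% were. The sites in all 6 lists were there at 95.1 and 86.3%. Sites found only in the unstressed list titled with triptolide were therefore mostly sites that earlier cells without the drug had as well, and sites found only in the list titled without it mostly were not. In recovery the order was the opposite: 66.7 and 50.9% of the sites found only without triptolide were in those unstressed lists, and 15.7 and 12.6% of those found only with it. At 1 h the earlier 1 h lists held 50.5 and 47.7% of the sites found only with triptolide and 37.8 and 32.0% of those found only without. In each state the side whose own peaks had the higher median fold enrichment was the one better represented in the earlier lists. With 1 library a side, the drug and differences between libraries cannot be told apart.

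**Figure D4:**
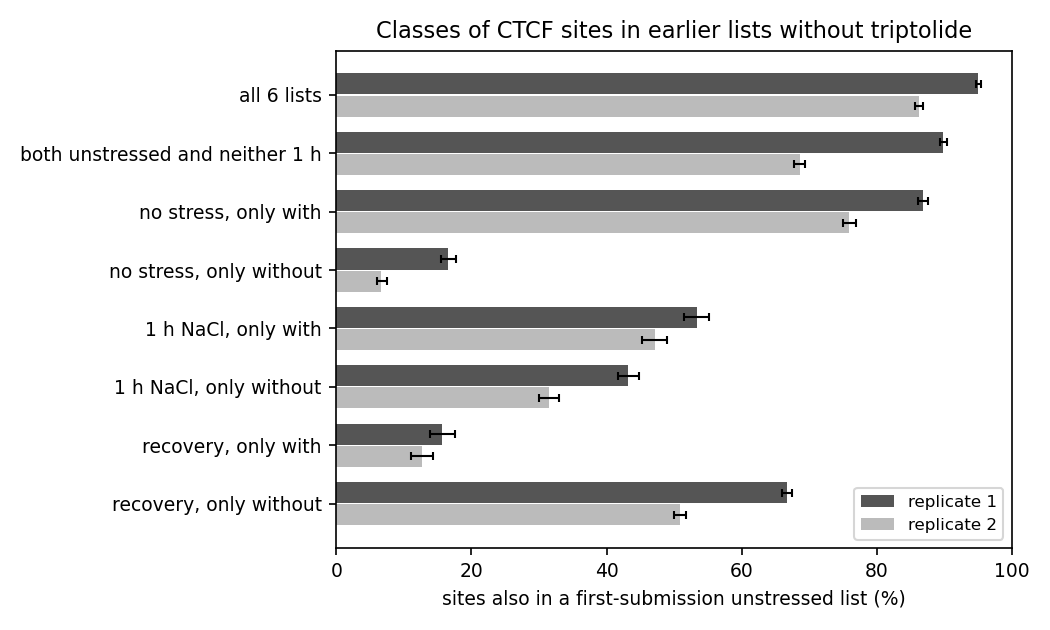
Share of each class of CTCF sites that overlaps a peak of an unstressed library of the earlier submission (replicates 1 and 2, without triptolide), with exact 95% intervals from counts. Unstressed sites found only with triptolide stand at 86.9 and 76.0%, and unstressed sites found only without it at 16.5 and 6.68%.

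Few sites followed the title in all 3 states. Presence in the 3 lists without triptolide and in none with it was found at 139 sites, 0.253% of all, and the reverse at 4 sites, 0.00729%. Gene ends were within 1 kb of 54.0% of the 139, against 22.6% of all sites, and transcription starts of genes with a known strand within 1 kb of 43.2%, against 16.2%. This was not particular to the 139. Of sites in just 2 lists without triptolide and in none with it, gene ends were near 46.9% (unstressed and recovery), 59.6% (1 h and recovery) and 19.9% (unstressed and 1 h). RAD21 without stress and without triptolide overlapped 0.7% of the 139 sites. In the earlier submission 4 and 2 of them were in the unstressed lists and 7 and 3 in the 1 h lists. The leading sites near gene ends were at MMP24, a membrane metalloproteinase, with a fold enrichment of 4.22, 4.08 and 6.36 in the 3 states, at NDC1, a membrane protein of the nuclear pore, with 4.49, 5.14 and 4.56, and at AKT2, a serine-threonine kinase, with 3.87, 3.61 and 4.77. ITPR3, an inositol trisphosphate receptor, XPNPEP1, SYNE1 (nesprin 1), SNRNP70 of the U1 spliceosomal particle, KLF13, SNX15 and IRS2, an insulin receptor substrate, followed with 3.18 to 5.78. Each of these 10 stood below percentile 45 in all 3 lists. A site of the same class at the start of MED26, a Mediator subunit, named after its values were seen, was higher in 2 lists, with 6.13 without stress (percentile 47.8) and 7.67 in recovery (percentile 52.1), but had 3.02 at 1 h (percentile 10.0). None of the 4 sites of the reverse pattern lay near a gene end by the rule used for names.

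Sites with a peak without stress and none at 1 h, on both sides, were more often back in recovery without triptolide than with it. Presence in both unstressed lists and absence from both 1 h lists was found at 13507 sites. Of these, 13169 were back in recovery without triptolide (97.5%, 97.2 to 97.8%) and 10292 with it (76.2%, 75.5 to 76.9%). Both recovery lists held 10238 of them and neither held 284. Only the list without triptolide held 2931 (21.7%), and only the list with triptolide 54 (0.4%). The recovery list without triptolide was also the longer: cut to 34517 peaks, the length of the other, it held 84.7% of the 13507 sites (84.1 to 85.3%), against 76.2% with triptolide. The earlier submission's lists at 1 h, from stressed cells, held 62.2 and 51.5% of these same sites, and its unstressed lists 89.9 and 68.6%.

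Return with triptolide went with the strength of the site before stress. The 13507 sites were divided into quintiles by the lower of their 2 unstressed percentiles. In the lowest quintile 54.1% were back with triptolide (52.2 to 56.0%) and 94.0% without it (93.0 to 94.9%). In the next ones it was 66.7 against 96.2%, 73.4 against 97.9% and 88.3 against 99.4%, and in the highest quintile 98.6 against 99.9%. The difference, with minus without, was thus -39.9 percentage points in the lowest and -1.37 in the highest quintile. These shares are from the full recovery lists, of 46377 peaks without and 34517 with triptolide. The part of list length in the difference by quintile was not tested. The shares back with triptolide differed less by place than by quintile. With triptolide 72.9% of sites near gene ends were back and 77.2% of others, 74.0% of sites in unstressed Pol II regions and 76.5% of others, and 79.4% of sites under unstressed RAD21 and 73.7% of others.

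**Figure D5:**
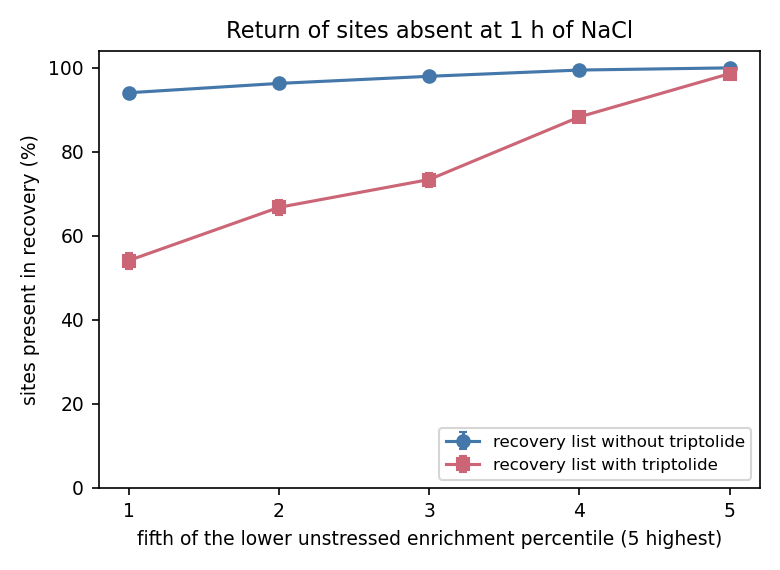
Share of the 13507 sites of both unstressed lists and neither 1 h list that had a peak in recovery, by quintile of the lower of their 2 unstressed enrichment percentiles, without and with triptolide, with exact 95% intervals from counts. The curves lie at 94.0 and 54.1% in the lowest quintile and at 99.9 and 98.6% in the highest. The recovery lists are the full ones, of unequal length.

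Among the leading sites of this class near gene ends, all back on both sides, was that at BAZ2B, a bromodomain protein (chromosome 2, 159712048 to 159712717, at its start and before that of MARCHF7), with a fold enrichment of 21.8 and 23.1 without stress and 28.0 and 22.5 in recovery. TACC2, a centrosomal protein, had 29.1 and 21.97 without stress and 26.0 and 20.3 in recovery. PHF19, a Polycomb-associated protein, UQCC2, an assembly factor of respiratory complex III, and CECR2, a bromodomain protein, had 17.8 to 28.7 in those 4 lists. The leading sites back only without triptolide were at CADPS2 (9.19 and 8.79 without stress, 9.71 in recovery without), SGPP2, the zinc finger genes ZNF274 and ZNF460, and BBS10, a Bardet-Biedl syndrome gene, all with 6.05 to 10.4. Back only with triptolide were CTDNEP1, CXCR4, a chemokine receptor, MT1F, a metallothionein, ZBTB7A and NME6, with 3.22 to 6.84. These leading sites are the highest of classes of 10238 (back on both sides), 2931 (only without) and 54 sites (only with triptolide). Their values therefore do not compare the classes. Over all sites of each class, the median of the lowest percentile among the lists that hold a site was 30.9, 18.7 and 11.98 in that order. Those percentiles include the recovery lists as well as the unstressed ones.

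Counted on each side against its own lists, 19103 of the unstressed peaks without triptolide (49.5%) and 23456 of those with it (56.2%) had no peak at 1 h. In recovery 87.4% (86.9 to 87.9%) of the former and 58.6% (58.0 to 59.3%) of the latter were overlapped. With all 6 lists at 20678 peaks the shares were 78.3% (77.2 to 79.4%) of 5560 and 74.0% (72.8 to 75.1%) of 5582, so that the sides stood much closer at equal length. New peaks differed as well. In recovery 11178 peaks without triptolide (24.1%) had no unstressed counterpart on that side, and 2965 with it (8.59%), of which 47.7 and 47.8% were in the unstressed list of the other side.

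A small class appeared at 1 h alone. Presence in both 1 h lists and in no other was found at 451 sites, of which 74.9% lay outside genes and their ends, against 42.1% of all sites, and 0.2% under unstressed RAD21 without triptolide, against 40.1%. The earlier 1 h lists held 7.10 and 26.6% of them and the earlier unstressed lists 0.887 and 4.21%. At promoters of this class PPP1CC, a catalytic subunit of protein phosphatase 1, had a fold enrichment of 6.43 and 6.82, and ZNF814 had 6.20 and 6.55.

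RAD21 was mapped in the same submission in the same states and sides, and its lists varied far more in length than those of CTCF. They held 24931 and 40969 peaks without stress, 6630 and 3344 at 1 h, and 6492 and 22967 in recovery, without and with triptolide. CTCF peaks overlapped by RAD21 of the same state and side were 49.5 and 71.6% without stress, 27.3 and 15.6% at 1 h, and 13.7 and 54.0% in recovery. With 20678 CTCF peaks in each list the shares were 66.9 and 90.2%, 29.0 and 15.6%, and 28.9 and 70.8%. In recovery the list with the fewer CTCF peaks was therefore the one with more RAD21 on them. The RAD21 lists carry the same disagreement of titles and tags, their length moves with this share, and its part was not tested. Conversely, 76.9 and 73.4% of RAD21 peaks lay at CTCF without stress, 90.9 and 96.4% at 1 h and 98.4 and 81.4% in recovery. Within the lowest quintile of fold enrichment, unstressed CTCF peaks without triptolide under RAD21 (the unstressed list without triptolide) were overlapped on the triptolide side at 92.9%, and those free of RAD21 at 45.5%. With the same RAD21 list, the order was the same in the lowest quintile of both 1 h lists. There it was 63.6 against 40.2% without triptolide and 72.6 against 62.0% with it. It was also the same in the recovery list with triptolide (98.8 against 76.7%). The order was the opposite in the lowest quintile of the unstressed list with triptolide (44.2 against 57.3%). It was also the opposite in that of the recovery list without triptolide (23.1 against 26.6%).

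The ranking of sites by enrichment was close between the sides. At the 15716 sites of all 6 lists, fold enrichment was ranked within each library as a percentile over these sites. The percentile with minus without triptolide had an SD over sites of 10.8 points without stress, 11.4 at 1 h and 8.79 in recovery, with rank correlations of 0.93, 0.92 and 0.95 over the same sites of 2 libraries each. Recovery minus no stress gave 8.93 without triptolide and 10.8 with it, and 1 h minus no stress gave 23.6 and 23.8. The ranking thus changed more with 1 h of stress than between the sides of a state. Differences of over 20 points between the sides were found at 7.76, 9.04 and 3.97% of sites. In all 3 states 1979 sites (12.6%) had a higher percentile with triptolide and 2006 (12.8%) a lower one, and by over 10 points each time 89 and 75 did. Shares of 12.6 and 12.8% are of the size that differences unrelated between the 3 states would also give.

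Sites near gene ends stood slightly lower with triptolide without stress. Their median difference, with minus without, was -1.66 percentile points (middle 50% of sites -8.12 to 1.14) at 4058 sites, against 0.52 (-4.49 to 6.98) at the 11658 others. At 1 h it was -0.34 against 0.10 and in recovery 0.15 against -0.01. For sites in unstressed Pol II regions the medians were -0.59, 0.05 and 0.24, against -0.02, -0.08 and 0.02 elsewhere. Near gene ends, sites were ordered by the smallest of their 3 differences. Among those with the widest margins, NEK7, a mitotic kinase, MOCS2, TOB1, an antiproliferative factor, and LOC105369669 stood higher with triptolide by 12.3 to 40.4 points in every state. At TOB1 the percentile was 45.2 without and 58.8 with triptolide without stress, 10.0 and 50.4 at 1 h, and 49.7 and 62.1 in recovery. Sites that stood lower with triptolide in every state included RAP2A, a small GTPase (47.1 and 14.1, 28.3 and 1.56, and 46.1 and 17.1), and UBA1, the ubiquitin-activating enzyme (65.5 and 17.8, 46.6 and 13.7, and 49.0 and 26.8). DDX47, SLC27A2 and KCNMA1, a potassium channel, stood lower by 19.3 to 40.3 points in every state. These were taken as extremes of the 4058 sites near gene ends and have no replicate.

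Gene groups were described by the CTCF sites within 1 kb of an end of their members, beside the same counts for all protein-coding genes, which had 12381 sites with 32.8% in all 6 lists and 3122 absent at 1 h on both sides, of which 3050 were back without and 2275 with triptolide. Immediate early genes and regulators of MAP kinases, many of which respond within minutes to a stimulus, had 56 sites, 12 of them in all 6 lists. Of their 22 sites absent at 1 h on both sides 22 were back without and 16 with triptolide. At the stronger site of EGR1, an immediate early transcription factor, the fold enrichment was 33.6 and 28.8 without stress, 15.0 and 11.4 at 1 h and 39.5 and 27.7 in recovery. At a site of JUN, a subunit of AP-1 (chromosome 1, 58785017 to 58785563), it was 12.03 and 12.2 without stress, with no peak at 1 h, and 15.3 and 7.88 in recovery. Another site of JUN (58781741 to 58782915) had 9.46 and 14.8 without stress and 10.5 and 8.92 in recovery. At 1 h that site had a peak with triptolide only (2.63). The remaining, weaker sites of JUN had no peak at 1 h. At DUSP1, a phosphatase of MAP kinases, the stronger of the 2 sites had 22.01 and 22.3, 6.29 and 7.76, and 22.7 and 14.1.

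Genes of the osmolyte and NFAT5 pathway, which cells use to adapt to hypertonic medium, had 21 sites, 7 in all lists. SLC6A6, the taurine transporter, had 14.7 and 13.0 without stress, no peak at 1 h, and 16.6 and 9.62 in recovery. NFAT5 itself, the osmosensitive transcription factor, had 4.89 and 5.29, none at 1 h, and 7.43 and 7.03. AQP3, a channel for water and glycerol, had a peak in every list, with 25.1 and 22.2, 5.17 and 4.14, and 25.8 and 18.2, and SLC5A3, the inositol transporter, had 8.48 and 10.8, 4.43 and 4.57, and 9.48 and 6.33. Of 8 sites of this group absent at 1 h on both sides, 8 were back without and 5 with triptolide.

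Cohesin, CTCF and loop factor genes had 20 sites, of which 11 (55.0%) were in all lists. The site at the start of CTCF itself had 28.5 and 28.0 without stress, 11.7 and 10.5 at 1 h and 36.6 and 22.4 in recovery, and that at STAG2, a cohesin subunit, 28.2 and 27.3, 15.2 and 18.0, and 38.1 and 26.5. SMC3, another subunit, had 3.25 and 4.16 without stress and 4.05 in recovery without triptolide, and no peak elsewhere. Genes of TFIIH and other general initiation factors, the complex that triptolide binds, had 9 sites, of which 2 were in all lists and 3 were found at 1 h only without triptolide, a class that held 1178 of the 12381 sites of all protein-coding genes. GTF2H2, a TFIIH subunit, was among these, with 14.7 and 14.1, 5.03 and none, and 20.2 and 10.3. In the other groups the sites found at 1 h only without triptolide ranged from 0 of 20 (cohesin, CTCF and loop factors) to 3 of 11 (heat shock chaperones). Pol II subunit genes had 13 sites with 4 in all lists, and elongation, termination and cleavage factor genes 31 with 8. Of the latter, CDK9, the kinase of P-TEFb, had at its stronger site 29.1 and 30.2, 30.1 and 27.0, and 33.6 and 23.8, and XRN2, the nuclear exonuclease of termination, was in the 3 lists without triptolide only, with 3.54, 3.89 and 3.43.

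In the remaining groups, sites in all 6 lists were 24 of 54 for cytosolic ribosomal protein genes, 18 of 41 for clustered protocadherins, 8 of 23 for HOX clusters, 8 of 21 for imprinted loci and 11 of 33 for luminal breast identity genes. They were 6 of 20 for oestrogen and progesterone targets, 5 of 17 for p53 targets, 3 of 11 for heat shock chaperones, 3 of 10 for the integrated stress response and 6 of 17 for glycolysis enzymes. Markers of blood cells had 1 of 5, of neurons and muscle 1 of 11, and of fibroblasts and endothelium 4 of 5. In recovery, sites found only without triptolide outnumbered those found only with it in each list that had any, for example 17 to 1 in the immediate early genes, 13 to 0 in the luminal genes and 10 to 0 in the ribosomal protein genes, as over all protein-coding genes (3484 to 153). GATA3, a luminal transcription factor, had at its stronger site 28.1 and 31.0 without stress, 10.6 and 7.08 at 1 h and 26.9 and 25.3 in recovery, and at HOXA9 the values were 25.4 and 29.1, 16.3 and 14.8, and 31.5 and 20.7. These counts rest on few sites for each list and were not tested.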

How the data were processed

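The samples were taken by title, and the members and gene lists were chosen with earlier results of these data known. The submitters' processing notes name cutadapt, Bowtie2 2.2.6, MACS2 and the build hg38. What each did, the control and the calling threshold are not given in the sources used. The authors deposited 1 narrow peak list per library, with the caller's fold enrichment as a ratio of pileup to background, the p and q of each peak as -log10 values, and a display score that was not used in any result. No read counts are in these lists, so depth is unknown, and intervals are exact Clopper-Pearson 95% limits that cover counting error only.

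From the deposited lists, peaks on chromosomes 1 to 22 and X were compared by overlap of at least 1 bp, and overlapping peaks of the 6 lists were merged into sites. A gene end lay within 1 kb of a site in the RefSeq table for GRCh38.p14, which has the coordinates of hg38 on these chromosomes (19970 protein-coding genes, 15811 with a strand). Pol II regions were those in both unstressed lists of the earlier submission with a -log10 q of at least 1.3. Named genes are the sites near gene ends with the highest lowest percentile of fold enrichment, up to 10 or 5 per class, the 5 with the widest rank margins each way, and members of the gene lists. One of the named sites is not reported here. The printed promoters and the list genes given with values were picked from these classes after their values were seen. Alternatives were a -log10 q or fold of at least 5, equal list length, summits within 100 bp, and the earlier untreated libraries; equal length over 6 lists, thresholds on the recovery lists and a test over the states as pairs were added after seeing the data. Python 3.11.15, numpy 2.4.6, pandas 2.3.3, scipy 1.17.1 and matplotlib 3.10.9 were used, and the overlap code was tested on simulated data.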

Additional observations from a re-analysis of the deposited data

Results flagged for a closer look

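The log2 ratio of the number of CTCF peaks with over without triptolide was 0.11 without stress, -0.091 at 1 h of NaCl and -0.43 in recovery, so the unstressed pair went one way and the other two pairs the opposite way. Each value rests on 1 library a side, and the difference between the states was not tested.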

How the results depend on the processing

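Of the alternatives for the main values, 33 moved by more than the counting interval, 2 reversed and 1 did not move; with 1 library a side there is no replicate to leave out. The log2 ratio of peak number without stress was 0.16 at a -log10 q of at least 5 and 0.31 at a fold of at least 5, and reversed to -0.52 and -0.071 with replicate 1 or 2 of the earlier submission as the library without triptolide. At 1 h these values were -0.060, -0.042, -0.77 and -0.73. In recovery the fold minimum gave -0.55. The share of peaks without triptolide overlapped with it was, at the q minimum, the fold minimum, equal length and summits within 100 bp, 90.6, 95.7, 84.2 and 82.0% without stress, 83.45, 86.3, 83.5 and 73.3% at 1 h, and 70.5, 66.8, 86.0 and 66.2% in recovery. With the earlier replicates 1 and 2 it was 63.3 and 72.4% without stress and 48.1 and 46.5% at 1 h. The share of peaks absent at 1 h that were back in recovery was, under the same 4 settings, 91.1, 96.5, 78.6 and 76.4% without triptolide and 59.5, 55.7, 74.0 and 55.2% with it, and 78.3 and 74.0% at equal length over the 6 lists. The cause was not tested, except that equal length removes the difference in list length by construction.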

Other observations

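The 451 sites found only in both 1 h lists were spread unevenly over the chromosomes. Chromosome 10 held 49 of them (10.9%, against 5.24% of all sites) and chromosome 21 held 32 (7.10%, against 1.68%). The class was described after its values were seen.

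The 3499 sites found only in the unstressed list with triptolide and the recovery list without it, which by the tags had different pre-treatments from their titles, were in the 2 earlier unstressed lists at 90.7 and 79.5%. The patterns over the same 2 states that follow the titles held 1069 sites without triptolide and 114 with it.

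At 13501 sites of all 6 lists that were also in both earlier unstressed lists, the order of enrichment differed between submissions. When the sites were put into 10 equal bins, from the lowest to the highest fold enrichment in the unstressed library without triptolide, whose median ran from 5.55 to 32.4, the median in earlier replicate 1 went from 24.1 to 33.1 and that in replicate 2 from 22.02 to 5.68. The rank correlations over these sites were 0.19 and -0.51, and 0.93 between the unstressed libraries without and with triptolide. The earlier libraries were therefore used for presence only, not for a spread of ranks, and the cause of the difference was not tested.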
